A study of Mus musculus with 36 samples.

Results

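The unfolded protein response is a transcriptional programme read here through 10 genes, *Hspa5*, *Xbp1*, *Dnajb9*, *Sdf2l1*, *Creld2*, *Herpud1*, *Pdia4*, *Manf*, *Hyou1* and *Ddit3*, taken by name from 78239 gene rows in the count files. RNA sequencing was performed on heart, kidney and liver of male wild type C57BL/6NCrl mice without any treatment, aged 8 weeks, 10 weeks or 12 weeks, with 4 libraries per tissue and age, biological replicates by the study's methods, and 36 libraries in all. The study asked how gene expression in these organs still changes while young mice pass from adolescence to adulthood. Animals were bought before the first sampling age and killed under ketamine and xylazine anaesthesia, which all groups shared. Each library held between 21031599 and 33637390 read pairs counted to genes.

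Secreted and membrane proteins fold in the endoplasmic reticulum (ER). When folding demand exceeds capacity, the ER membrane sensors IRE1, PERK and ATF6 release the chaperone BiP and signal to the nucleus: IRE1 splices *Xbp1* mRNA, ATF6 is cut to release a transcription factor, and PERK slows translation while favouring ATF4 and CHOP. Hepatocytes secrete most plasma proteins and use this programme also during normal feeding cycles. Splicing of *Xbp1* cannot be read from counts per gene, so the values below are total transcript levels.

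Several members carry ER stress response elements in front of their start sites, and the upstream bases are shown for those in which the motif letters were found. Promoter sequences from RefSeq (GRCm38.p6) held 8 of the 10 members. *Manf* and *Hyou1* had no entry. The patterns searched on both strands of 300 bases around each start were the ER stress response element ERSE, which is CCAAT and CCACG with 9 free bases between them, ERSE-II, which is ATTGG and CCACG with 1 free base between them, the unfolded protein response element, TGACGTGG, and the C/EBP-ATF element, ATTGCATCA. A shorter ERSE lacking its last letter was added after the first search and lies inside every full ERSE. The full ERSE stood in 2 of the 8 members and in 0.119% of 32851 promoters, the shorter one in 4 of 8 and in 0.365%, and ERSE-II in 1 of 8 and in 0.0365%. Neither the unfolded protein response element, present in 0.676% of promoters, nor the C/EBP-ATF element, present in 0.192%, was found in the 8 with all its letters. Shorter forms of these elements were not searched, nor were bases outside the 300. The *Herpud1* bases below hold ttgcatca, the C/EBP-ATF letters without the first. Below are the 150 bases upstream of the start for the 4 members with a match, 5′ to 3′, with the fixed letters of each match in capitals.
Hspa5, chr2:34771940-34772089, forward strand: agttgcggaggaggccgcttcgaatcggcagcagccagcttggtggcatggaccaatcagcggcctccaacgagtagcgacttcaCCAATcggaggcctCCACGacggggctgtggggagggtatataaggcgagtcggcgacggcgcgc
Creld2, chr15:88819496-88819645, forward strand: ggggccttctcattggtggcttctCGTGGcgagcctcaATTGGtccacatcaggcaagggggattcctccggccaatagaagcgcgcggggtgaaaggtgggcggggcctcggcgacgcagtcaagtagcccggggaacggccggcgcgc
Pdia4, chr6:47813513-47813662, reverse strand: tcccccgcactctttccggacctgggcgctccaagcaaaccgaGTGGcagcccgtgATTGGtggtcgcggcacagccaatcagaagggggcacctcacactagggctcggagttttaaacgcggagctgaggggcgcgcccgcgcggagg
Herpud1, chr8:94386279-94386428, forward strand: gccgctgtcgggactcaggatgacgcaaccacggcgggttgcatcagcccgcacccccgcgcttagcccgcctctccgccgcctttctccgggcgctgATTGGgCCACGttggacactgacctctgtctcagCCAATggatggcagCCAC
Counted from the start site, the full ERSE lay at bases -65 to -47 of *Hspa5* and, on the opposite strand, at -126 to -108 of *Creld2*. *Pdia4* had the shorter form on the opposite strand at -107 to -90. *Herpud1* had ERSE-II at -52 to -42 and the shorter ERSE at -18 to -1. These are letter matches and were not tested for binding.

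Each tissue held the markers of its label. Summed over 6 marker genes, cardiomyocyte transcripts reached 40877 to 53355 CPM (read pairs of a gene scaled to a common library size) in heart and at most 3.70 in kidney and 1.52 in liver, hepatocyte transcripts 94460 to 162142 CPM in liver, 3066 to 5433 in kidney and at most 29.5 in heart, and kidney tubule transcripts 7935 to 9273 CPM in kidney and at most 4.96 elsewhere. In kidney the hepatocyte sum came mostly from *Ass1* and *Cyp2e1* (medians of 2899 and 1604 CPM), while *Ttr* had a median of 89.0 and *Alb* of 5.11. Pancreatic acinar transcripts, a possible source of ER genes from a neighbouring organ, stayed at or below 1.08 CPM over 6 markers in every library, with *Prss2* and *Amy2a1* at 0 throughout.

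All 10 genes were expressed in the 3 organs and 10 of 10 passed the filter on low counts in each. *Hspa5* encodes BiP, the major ER chaperone of the HSP70 family (ENSMUSG00000026864, chr2:34661982-34668880, GRCm39). It averaged 663 ± 107 CPM in heart, 444 ± 111 in kidney and 1290.0 ± 365 in liver (mean ± SD, n = 12 libraries). CPM is on one scale for all 36 libraries, and in bulk tissue fewer cells of a type cannot be told apart from less RNA per cell. *Herpud1*, which helps retrotranslocate misfolded proteins for degradation (ENSMUSG00000031770, chr8:95113022-95123141), was the other abundant member at 332 ± 96.9, 296 ± 42.6 and 733 ± 134 CPM. Per kilobase of canonical transcript, *Hspa5* led in heart (134 CPM per kb) and liver (260.4) while *Herpud1* led in kidney (95.1 against 89.6). Counting only transcript bases shared with no other gene, *Hspa5* led in kidney too, with 161 against 99.5 CPM per kb, because much of its canonical transcript lies opposite *Rabepk*.

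*Xbp1*, the transcription factor downstream of IRE1 (ENSMUSG00000020484, chr11:5470606-5483027), averaged 61.8 ± 9.42 CPM in heart, 114 ± 22.3 in kidney and 359.7 ± 66.9 in liver. Its target *Dnajb9*, encoding the BiP co-chaperone ERdj4 (ENSMUSG00000014905, chr12:44252341-44257171), averaged 65.0 ± 5.71, 51.6 ± 5.09 and 150.2 ± 55.1 CPM. *Hyou1*, a nucleotide exchange factor for BiP (ENSMUSG00000032115, chr9:44290418-44303666), averaged 45.0 ± 9.70, 103 ± 20.8 and 280.4 ± 113.1 CPM. The liver held the highest mean of these genes, and the order of heart and kidney differed between them. *Pdia4*, a protein disulfide isomerase (ENSMUSG00000025823, chr6:47770077-47790462), rested on 23.4 ± 5.35, 87.5 ± 13.0 and 205 ± 66.7 CPM. *Manf*, a small secreted and ER-resident protein that binds BiP (ENSMUSG00000032575, chr9:106715511-106769727), stood at 22.1 ± 8.64, 34.4 ± 11.2 and 85.8 ± 31.7 CPM.

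Lower levels were measured for *Creld2*, an ER protein with disulfide isomerase activity (ENSMUSG00000023272, chr15:88703795-88710890), at 10.1 ± 2.18, 23.8 ± 4.66 and 49.98 ± 25.6 CPM, and *Sdf2l1*, a partner of BiP and its co-chaperones (ENSMUSG00000022769, chr16:16948002-16950252), at 4.91 ± 1.71, 5.78 ± 2.28 and 37.1 ± 24.3 CPM. *Ddit3* (ENSMUSG00000025408, chr10:127124268-127132163) encodes the PERK branch factor CHOP. Its CPM were low in all organs and the exception to the order of tissues, at 6.97 ± 1.49 in heart, 4.23 ± 0.484 in kidney and 4.01 ± 0.971 in liver. Its canonical transcript has no base that another annotated gene does not share, and 1 of these genes is a second *Ddit3* row on the same strand. Pairs in bases shared on the same strand are left out of every column. These CPM may therefore not give the level of the CHOP transcript or its order between tissues. Without regard to strand, 61.4% (liver) to 78.2% (heart) of the pairs that either strand column counted to *Ddit3* were kept, and 72.1% to 76.7% for *Manf*, against a median of 99.7% over 16739 genes. For *Ddit3* this share does not include pairs lost to the same-strand row. *Herpud1* kept 91.9% to 93.7%, and the other 7 members kept at least 99.75%.

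**Figure D1:**
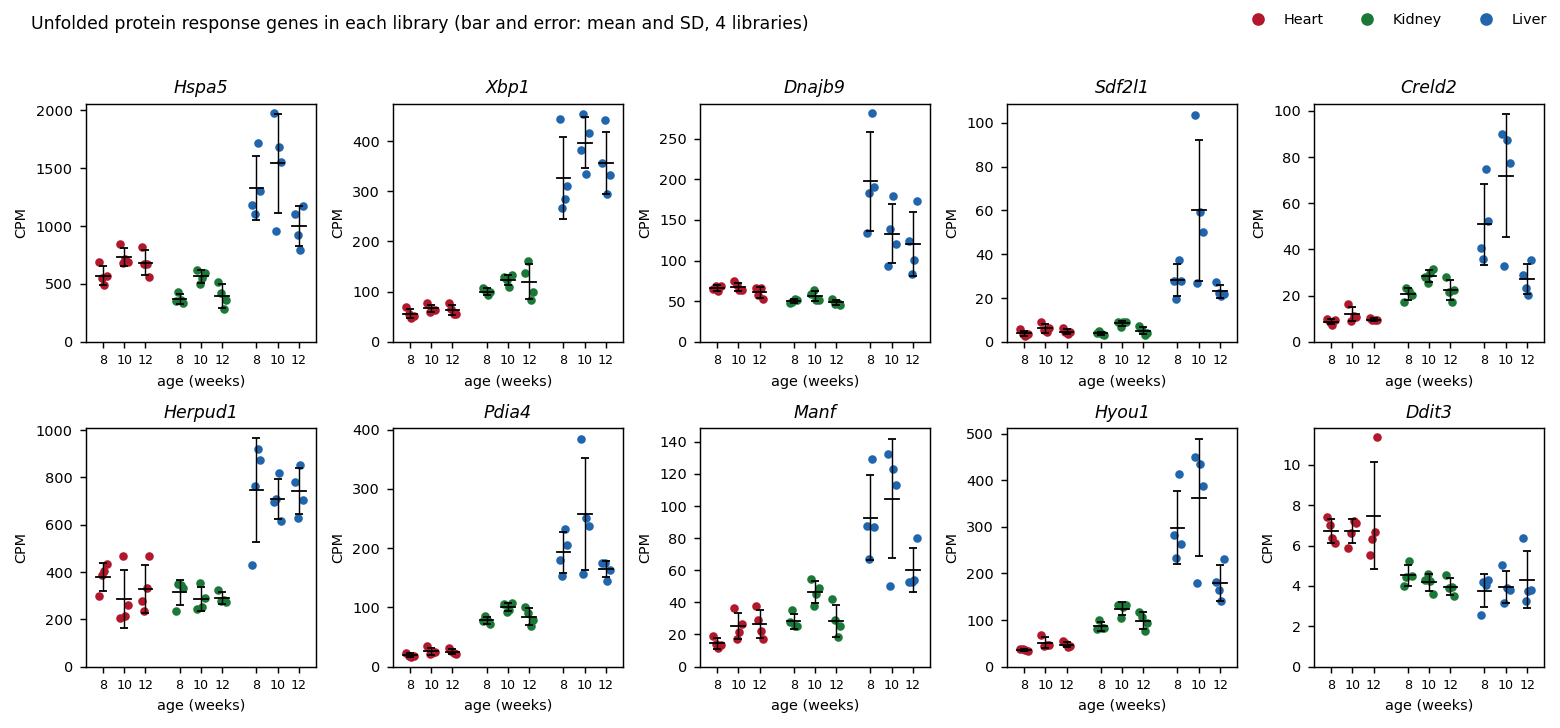
CPM of each member (vertical axes, linear, from 0) in each library by age in weeks (horizontal axes) for heart, kidney and liver. Points are libraries, bars are means and error bars SD of 4 libraries. Liver points lie highest for 9 of the 10 genes by mean, and *Ddit3* is highest in heart.

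Between tissues, averaged over the 3 ages, liver exceeded the other organs for nearly the whole programme. Between tissues a gene counted as called where the adjusted p was below 0.05 and the log2 fold change beyond 1 in either direction. Liver was higher than heart for 8 of 10 members, against 26.5% of 19716 genes called higher. The median over the members was a log2 difference of 2.09, beside 0.00 over all genes. The largest were *Pdia4* (3.12 ± 0.11, SE, adjusted p = 1.06e-23), *Sdf2l1* (2.82 ± 0.17, adjusted p = 5.74e-17) and *Hyou1* (2.59 ± 0.12, adjusted p = 4.29e-20). *Hspa5*, the most abundant chaperone, differed less, by 0.95 ± 0.10 (adjusted p = 2.87e-10), and *Ddit3* went the other way at -0.80 ± 0.11 (adjusted p = 7.79e-08), so both passed the p and not the fold threshold.

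Liver was also higher than kidney for 8 of 10 members (17.2% of all genes were called higher; member median 1.36, all genes -0.16). Differences ran from 1.21 ± 0.10 for *Pdia4* to 2.62 ± 0.16 for *Sdf2l1*. *Creld2* passed the p threshold alone, at 0.97 ± 0.13 (adjusted p = 2.42e-08). *Ddit3* did not differ beyond its error between kidney and liver, at -0.08 ± 0.11 (adjusted p = 0.52), and its sign turned to 0.23 with counts of the first strand column.

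Kidney against heart split the members. *Pdia4* (1.91 ± 0.11, adjusted p = 6.87e-18), *Creld2* (1.24 ± 0.13, adjusted p = 2.85e-10) and *Hyou1* (1.20 ± 0.12, adjusted p = 2.39e-11) were called higher in kidney, 3 of 10 against 30.8% of all genes, and 0 were called lower, against 21.9%. *Hspa5* (-0.60 ± 0.10), *Dnajb9* (-0.33 ± 0.10) and *Ddit3* (-0.72 ± 0.11) were lower in kidney and *Xbp1* (0.89 ± 0.10) and *Manf* (0.65 ± 0.16) higher at an adjusted p under 0.05 with folds inside the threshold. For *Sdf2l1* (0.19 ± 0.17, adjusted p = 0.287) and *Herpud1* (-0.15 ± 0.13, adjusted p = 0.254) heart and kidney did not differ beyond their error. The member median was 0.42 beside 0.15 over all genes.

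**Figure D2:**
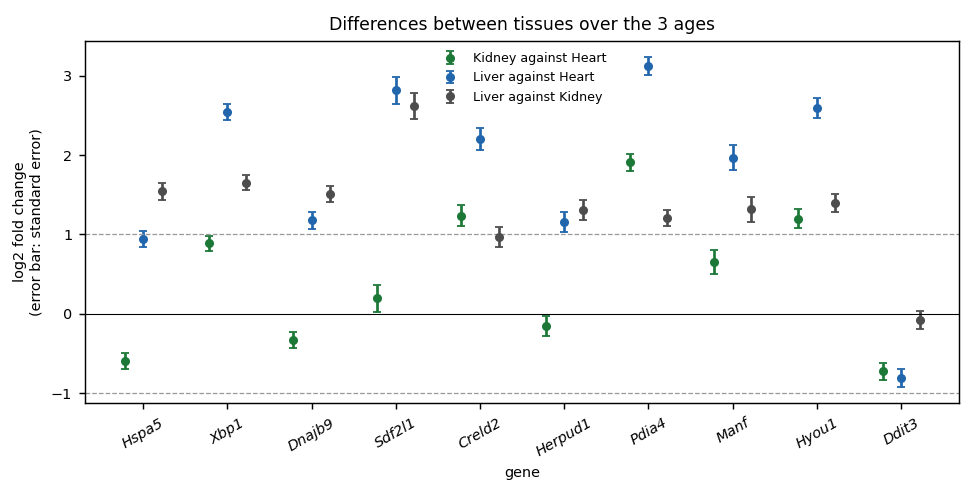
Log2 fold change between tissues over the 3 ages (vertical axis) for each member (horizontal axis), with standard errors from the edgeR fit of 36 libraries. Dashed lines mark an absolute log2 fold change of 1. Both liver contrasts lie above 0 for 9 genes, and for *Ddit3* the error bar of liver against kidney crosses 0.

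Of 68 other pathway genes, 41 were called higher and 5 lower in liver than in heart, where 26.5% of all genes were called higher. No share over all genes is given for lower calls in liver against heart, so those numbers are counts only. In liver against heart, 12 of 15 ER folding factors, 11 of 15 genes of ER-associated degradation and 10 of 15 of ER translocation and export were called higher and 0 lower. Medians were 1.92, 1.43 and 1.41. Among these, the oxidase *Ero1b* had the largest difference of the folding factors (4.08 ± 0.13) and *Sec61b*, a subunit of the translocation channel, the largest of its list (3.28 ± 0.06). Of 8 sensors and transducers, 2 were called higher in liver, *Ern1* (encoding IRE1, 2.84 ± 0.10) and *Eif2ak3* (encoding PERK, 1.58 ± 0.11). That count was near the 26.5% over all genes. Of 15 ATF4 and CHOP targets tested, 6 were called higher and 5 lower, with a median of -0.17 and the lowest value for *Stc2* (-5.95 ± 0.18), which encodes a secreted glycoprotein. In kidney against heart, *Edem1*, a factor of ER-associated degradation, was higher by 2.80 ± 0.06 while *Atf6* was lower by 1.28 on the log2 scale (fold change -1.28 ± 0.05).

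With age, the comparison in which most members separated was 10 against 8 weeks in kidney. *Hspa5* in kidney was at 353, 433, 365 and 332 CPM at 8 weeks, 621, 495, 551 and 595 at 10 weeks, and 521, 417, 281 and 361 at 12 weeks. All 10-week libraries thus stood above all 8-week libraries, while 12-week libraries spanned both. *Sdf2l1* was at 4.12, 4.92, 3.45 and 3.32 CPM at 8 weeks, 8.95, 6.61, 9.15 and 8.93 at 10 weeks and 7.0002, 5.40, 3.33 and 4.19 at 12 weeks. The ages 8 and 10 did not overlap, with replicate 2 the lowest of the 10-week libraries. *Sdf2l1* rose from 8 to 10 weeks by a log2 fold change of 1.12 ± 0.20 (edgeR quasi-likelihood test, adjusted p = 0.0216) and was the 1 member called, against 0.929% of 17649 genes. That call was lost without 8-week replicate 3 or 4 or 10-week replicate 1 or 3, with log2 fold changes of 1.04 to 1.08 and adjusted p of 0.0652 to 0.0787.

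In the same comparison 7 of 10 members were higher in every 10-week than in every 8-week kidney library, against 5.02% of all genes, and 0 were lower throughout. Beside *Hspa5* and *Sdf2l1* these were *Xbp1*, *Creld2*, *Pdia4*, *Manf* and *Hyou1*. *Hyou1* was at 80.4, 101, 81.8 and 83.5 CPM at 8 weeks and 133, 104, 128 and 132 at 10 weeks, and *Manf* at 27.8, 34.9, 25.4 and 25.0 against 54.2, 37.9, 45.0 and 48.7. For both, 10-week replicate 2 came nearest to the highest 8-week library, replicate 2. The log2 fold changes were 0.54 ± 0.12 for *Hyou1* (adjusted p = 0.0507), 0.63 ± 0.15 for *Hspa5* (0.0573), 0.49 ± 0.12 for *Creld2* (0.0725), 0.39 ± 0.10 for *Pdia4* (0.0731) and 0.74 ± 0.20 for *Manf* (0.0835), each just outside the threshold in edgeR after adjustment. DESeq2 called 5 members, limma-voom 1. At an unadjusted p under 0.05, 7 members were higher, against 8.96% of all genes. *Herpud1* (-0.12 ± 0.13) and *Ddit3* (-0.10 ± 0.12) did not share the difference, and *Dnajb9*, at 0.19 ± 0.07, overlapped between ages. The member median was 0.44, beside 0.00 over all genes.

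*Creld2* and *Pdia4*, both with disulfide isomerase activity, had narrower ranges. *Creld2* was at 17.2, 23.1, 21.96 and 20.3 CPM at 8 weeks, 27.97, 25.3, 29.8 and 31.3 at 10 weeks and 27.9, 21.7, 17.1 and 22.5 at 12 weeks. *Pdia4* was at 76.2, 85.6, 76.7 and 72.7 CPM at 8 weeks, 105, 93.0, 95.6 and 107 at 10 weeks, and 100.4, 89.8, 68.2 and 79.3 at 12 weeks. For both, 12-week replicate 1 lay in the 10-week range and replicate 3 below all 8-week libraries. *Xbp1* was at 107, 102, 92.4 and 98.3 CPM at 8 weeks, 128, 123, 109 and 133 at 10 weeks and 137, 160.3, 82.5 and 99.8 at 12 weeks, so its highest and its lowest kidney libraries were both of 12 weeks. Its difference of 0.32 ± 0.16 at 10 against 8 weeks had an adjusted p of 0.317.

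The other kidney comparisons gave 0 members called in edgeR. At 12 against 10 weeks, 9 of 10 members were lower, 7 at an unadjusted p under 0.05 (7.74% of all genes; 0.482% passed the adjusted p in either direction). The largest was *Sdf2l1* at -0.76 ± 0.20 (adjusted p = 0.0865), then *Manf* at -0.72 ± 0.20 (0.0995) and *Hspa5* at -0.54 ± 0.15 (0.10). DESeq2 called 2 and limma-voom 0. At 12 against 8 weeks, 0 members passed even an unadjusted p under 0.05 (11.7% of all genes did; 0.0567% passed after adjustment), and DESeq2 and limma-voom called 0. The 2 comparisons with 10 weeks share the 10-week libraries.

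Markers of plasma cells, professional secretory cells with a large ER, were low in these kidneys. None of 7 was at 0 in all libraries, but *Igkc* had at most 1 counted pair in any library and a median of 0 CPM. The sums therefore hold almost nothing of *Igkc*. Summed over these genes they reached 3.44 to 5.64 CPM at 8 weeks, 3.72 to 6.06 at 10 weeks and 8.59 to 19.4 at 12 weeks, so they overlapped between 8 and 10 weeks. Of 3 plasma cell markers tested at 10 against 8 weeks, 0 passed. Macrophage markers, of which *Clec4f* was at 0 in kidney, overlapped too, at 62.0 to 71.5 CPM against 64.0 to 78.3 over 6 genes. Kidney tubule markers did not overlap, with sums of 8655 to 9256 CPM at 8 weeks and 7935 to 8637 at 10 weeks, 5 of 6 being lower and 0 passing. The part of these cell types in the result was not tested.

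Among the other pathway genes in kidney at 10 against 8 weeks, 6 of 67 tested passed an adjusted p under 0.05, all higher: 2 of 15 ER folding factors, 1 of 15 of ER-associated degradation and 3 of 15 of translocation and export. Over all genes, 0.929% passed in either direction. *Hsp90b1*, encoding the ER chaperone GRP94, rose by 0.51 ± 0.09 (adjusted p = 0.0172). The translocation channel subunits *Sec61g* and *Sec61b* rose by 0.51 ± 0.08 (adjusted p = 0.0135) and 0.39 ± 0.08 (adjusted p = 0.0336). *Sec61g* fell again from 10 to 12 weeks by 0.44 ± 0.08 on the log2 scale (adjusted p = 0.0379). None of 8 sensors and transducers and none of 14 ATF4 and CHOP targets passed, the latter with a median of 0.39 beside 0.12 over all 67 genes.

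**Figure D3:**
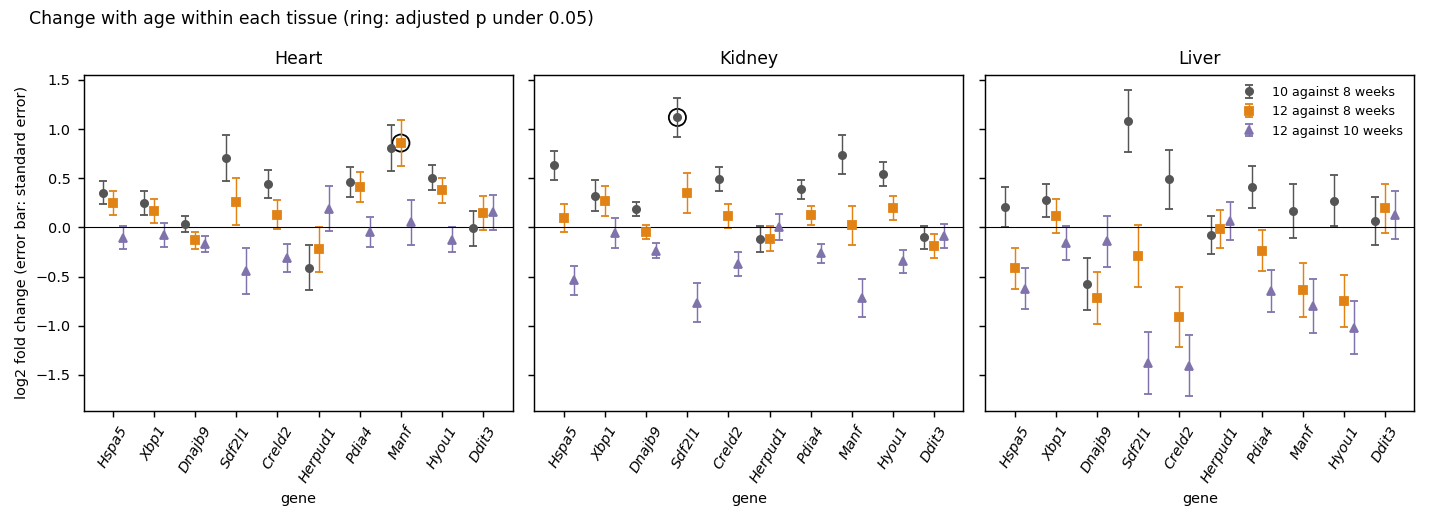
Log2 fold change between ages (vertical axis) with standard errors for each member (horizontal axis) in heart, kidney and liver. Rings mark the 2 values with an adjusted p under 0.05, *Manf* in heart at 12 against 8 weeks and *Sdf2l1* in kidney at 10 against 8 weeks.

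In heart, *Manf* was the member that passed the test. Its CPM were 19.3, 13.8, 11.7 and 13.1 at 8 weeks, 36.3, 17.1, 21.4 and 26.3 at 10 weeks and 37.4, 29.1, 22.2 and 16.97 at 12 weeks. The highest 8-week library, replicate 1, stood above the lowest library of either later age. *Manf* rose from 8 to 12 weeks by 0.86 ± 0.23 (adjusted p = 0.0452), the 1 member called against 4.56% of 15137 genes. This call was lost in limma-voom (adjusted p = 0.0585), with the first strand column (0.0567) and in 8 of the 12 fits that left out 1 library, namely any of 8-week replicates 2 to 4, 10-week replicates 3 and 4 and 12-week replicates 1 to 3, with adjusted p from 0.0508 to 0.138 and fold changes from 0.63 to 0.92.

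*Hyou1* was the member whose heart libraries separated 8 weeks from the later ages. It was at 38.4, 37.7, 36.3 and 32.7 CPM at 8 weeks, 68.8, 43.8, 47.2 and 46.0 at 10 weeks, and 54.8, 50.04, 41.2 and 43.2 at 12 weeks. It was the 1 of 10 members without overlap in each comparison with 8 weeks, where 5.05% (10 weeks) and 6.92% (12 weeks) of all genes were higher throughout, with log2 fold changes of 0.50 ± 0.13 (adjusted p = 0.0691) and 0.38 ± 0.13 (adjusted p = 0.0899). *Hspa5* in heart was at 685, 553, 488 and 565 CPM at 8 weeks, 845, 680.5, 713 and 691 at 10 weeks and 822, 675, 671 and 562 at 12 weeks. Its 8-week and 10-week libraries overlapped through 8-week replicate 1, the 12-week libraries spanned most of both, and the difference at 10 weeks was 0.35 ± 0.12 (adjusted p = 0.153).

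At 10 against 8 weeks in heart, 0 members passed an adjusted p under 0.05 in edgeR (1.06% of all genes did), 6 were higher at an unadjusted p under 0.05 (8.26% of all genes), DESeq2 called 1 and limma-voom 0. The members' median was 0.40 at 10 and 0.21 at 12 against 8 weeks. *Herpud1* stood opposite to the chaperones, at -0.41 ± 0.23 and -0.22 ± 0.23. Macrophage markers were higher for 5 of 5 genes tested at 10 against 8 weeks, none past an adjusted p under 0.05, with sums of 93.8 to 133 CPM at 8, 112 to 152 at 10 and 103 to 126 at 12 weeks, and their part in the result was not tested. At 12 against 10 weeks 0 members were called by edgeR, DESeq2 or limma-voom (0.0396% of all genes by edgeR), with 1, *Creld2*, lower at an unadjusted p under 0.05 (6.04% of all genes).

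Of 66 other pathway genes in heart at 12 against 8 weeks, 3 rose and 2 fell, beside the 4.56% of all genes that passed in either direction. The glucosyltransferase *Uggt1*, which returns misfolded glycoproteins to the folding cycle, rose by 0.35 ± 0.08 (adjusted p = 0.022), *Sel1l*, the adaptor of the ER degradation ligase, by 0.30 ± 0.07 (0.0287), and *Srpra*, the signal recognition particle receptor, by 0.31 ± 0.08 (0.0355). *Atf3* and *Cebpb*, transcription factors of many stress responses, fell by 1.06 ± 0.26 (0.031) and 0.80 ± 0.19 (0.0265) on the log2 scale. At 10 against 8 and at 12 against 10 weeks none of the 66 passed in edgeR.

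In liver, 8 of 10 members varied more between libraries of one age than in heart or kidney, all but *Xbp1* and *Herpud1*. Genes in general did so too, with a median SD of log2 CPM of 0.25 in liver, 0.18 in heart and 0.17 in kidney. *Hspa5* was at 1180.1, 1107, 1719.7 and 1307 CPM at 8 weeks, 1973, 955, 1685 and 1555 at 10 weeks, and 1102, 922, 797 and 1177 at 12 weeks. The 10-week replicate 2 was lower than all 8-week libraries while the other 10-week libraries reached above most of them. *Sdf2l1* was at 27.9, 19.3, 37.5 and 27.8 CPM at 8 weeks, 104, 26.9, 59.2 and 50.2 at 10 weeks and 27.2, 22.4, 20.7 and 21.7 at 12 weeks. For *Sdf2l1*, 3 of the 4 libraries at 10 weeks lay above every other liver library, and replicate 2 lay among the 8-week and 12-week values.

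*Creld2* gave the same picture, with 40.8, 35.7, 75.0 and 52.2 CPM at 8 weeks, 90.1, 32.8, 87.4 and 77.4 at 10 weeks and 29.0, 23.5, 20.5 and 35.4 at 12 weeks. *Manf* in liver was at 87.7, 66.8, 129 and 87.0 CPM at 8 weeks, 133, 50.3, 123 and 112.97 at 10 weeks and 52.5, 52.5, 54.2 and 80.4 at 12 weeks. For *Creld2*, 10-week replicate 2 fell inside the 12-week range, and for *Manf* it was the lowest liver library. *Hyou1* stood at 283, 234, 414 and 264 CPM at 8 weeks, 449.6, 179, 436 and 388 at 10 weeks and 181, 165, 139.8 and 231 at 12 weeks, so that all 12-week libraries were below all 8-week libraries. With libraries scaled within liver, as in the test, *Hyou1* was the 1 of 10 members lower throughout, against 3.84% of all genes. On the CPM printed here, scaled over all tissues, there were 2, since *Creld2* also separated narrowly (35.7 against 35.4). The difference of *Hyou1*, -0.75 ± 0.26, did not pass (adjusted p = 0.225).

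*Xbp1*, *Dnajb9* and *Herpud1* did not show this order in liver. *Xbp1* was at 445, 266, 284 and 311 CPM at 8 weeks, 382, 454, 334 and 416 at 10 weeks and 357, 441, 294 and 332 at 12 weeks. *Dnajb9* was at 134, 183, 281 and 190.4 CPM at 8 weeks, 93.4, 139, 179 and 119.98 at 10 weeks and 124, 83.6, 101 and 174 at 12 weeks. *Herpud1* was at 431, 763, 921 and 872 CPM at 8 weeks, 698, 709, 819.7 and 615 at 10 weeks and 782, 629.9, 853 and 703 at 12 weeks. All ages overlapped for these genes, and the lowest *Herpud1* library, 8-week replicate 1, held the second highest *Xbp1* value.

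No member passed an adjusted p under 0.05 in any comparison of ages in liver by edgeR. At 12 against 10 weeks 6 were lower at an unadjusted p under 0.05 (7.77% of all genes; 0.0545% passed after adjustment), the largest being *Creld2* at -1.40 ± 0.31 (adjusted p = 0.0745) and *Sdf2l1* at -1.38 ± 0.32 (adjusted p = 0.0797). DESeq2 called 3 of the members there and limma-voom 0. Without 10-week replicate 2, edgeR called 3. At 12 against 8 weeks 4 were lower at an unadjusted p under 0.05 (7.77% of all genes; 0.239% after adjustment), and DESeq2 and limma-voom called 0. At 10 against 8 weeks *Sdf2l1* was higher by 1.08 ± 0.31 (adjusted p = 0.166) and *Dnajb9* lower by 0.57 (fold change -0.57 ± 0.26, adjusted p = 0.346), 2 members at an unadjusted p under 0.05 (14.3% of all genes; 0.0204% after adjustment), with DESeq2 calling 1 and limma-voom 0.

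The wider pathway in liver at 12 against 10 weeks leaned the same way without a gene passing in edgeR: 15 of 15 ER folding factors, 14 of 15 genes of ER-associated degradation and 14 of 15 of translocation and export had lower values, with medians of -0.41, -0.18 and -0.25, beside 0.01 over all genes. Sensors and transducers were split, 4 of 8 lower. Of the 66 pathway genes tested, 18 were lower at an unadjusted p under 0.05 and 1 was higher, where 7.77% of all genes were lower. Macrophage markers moved with this comparison: 6 of 6 had lower values, and their summed level was 301 to 439 CPM at 10 weeks against 165 to 195 at 12 weeks, although 0 of 6 passed. At 8 weeks it was 135 to 290 CPM. Hepatocyte markers were lowest at 10 weeks, with sums of 94460 to 114547 CPM against 122170 to 162142 at 8 and 120810 to 157407 at 12 weeks, and 0 of 6 passed in either comparison with 10 weeks. For both lists, their part in the result was not tested.

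The fit of all 36 libraries also tested if tissues differed in how the members changed with age. The change from 8 to 12 weeks differed between liver and heart for *Hyou1*, at -1.12 ± 0.29 for liver minus heart (adjusted p = 0.0221). It also differed for *Manf*, at -1.49 ± 0.38 (adjusted p = 0.0228). These were 2 of 10 members, against 4.16% of 19716 genes. Group means make the directions plain: *Hyou1* went from 36.3 to 47.3 CPM in heart and from 299 to 179 in liver. *Manf* went from 14.5 to 26.4 in heart and from 92.7 to 59.9 in liver. By these means both genes were higher in heart and lower in liver at 12 weeks, which brought the means of the tissues closer. Within a tissue, only the rise of *Manf* in heart passed an adjusted p under 0.05 in edgeR. The lower *Manf* in liver did not pass under any setting or with any library left out (adjusted p from 0.134 to 0.549). The *Hyou1* call was lost without liver 8-week replicate 3 (-0.92, adjusted p = 0.0608) or liver 12-week replicate 3 (-1.02, 0.054), and the *Manf* call without liver 8-week replicate 3 (-1.29, 0.0571) or heart 12-week replicate 1 (-1.28, 0.0594). Limma-voom called neither, with adjusted p of 0.0559 and 0.0561.

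Among 68 pathway genes the same contrast had 8 lower and 1 higher at an adjusted p under 0.05, beside 4.16% of all genes in either direction. *Uggt1* was at -0.69 ± 0.14 (adjusted p = 0.00454), the export coat subunits *Sec23b* and *Sec24d* at -0.82 ± 0.24 (0.0452) and -0.62 ± 0.18 (0.0465). The higher gene was *Atf3*, whose liver CPM at 12 weeks ran from 0.659 to 47.9 (12.6 ± 23.5), so that 1 library carried its value.

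The other contrasts of tissues gave 0 members in edgeR, DESeq2 and limma-voom. Liver minus kidney at 12 against 8 weeks had 3 members at an unadjusted p under 0.05, *Hyou1*, *Creld2* and *Dnajb9* (11.2% of all genes; 0.304% after adjustment). Kidney minus heart had 1, *Manf*, at 12 against 8 weeks (11.1%; 0.112%) and 0 at 10 against 8 weeks (7.94%; 0.198%). For 10 against 8 weeks, liver minus heart (14.5%; 1.09%) and liver minus kidney (9.44%; 0.0558%) each had 1, *Dnajb9*.

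By mean log2 CPM, 10 weeks was the highest of the 3 ages for 7 of 10 members in heart, 8 of 10 in kidney and 7 of 10 in liver. Over all genes tested the share was 27.5%, 35.4% and 32.8%. Tissues shared animals in part, so they are not independent repeats. *Herpud1* was an exception, since its mean CPM was lowest at 10 weeks in heart (287 against 381 at 8 and 328 at 12 weeks), kidney (285 against 314 and 289.6) and liver (710.3 against 747 and 742), differences that did not pass the test.

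Part of the programme varied together between libraries of the same age. After the age means were removed, Pearson's r of log2 CPM with *Hspa5* over the 12 libraries of a tissue was computed for every gene, as a description only, since the points share library, depth and animal. In kidney *Pdia4* (r = 0.986) and *Manf* (0.984) ranked 1 and 2 of 17648 genes, *Hyou1* (0.947) 5 and *Sdf2l1* (0.943) 6. In liver *Creld2* (0.977) ranked 1 of 14671 genes, *Hyou1* (0.963) 3 and *Manf* (0.915) 5. In heart the closest members were *Xbp1* (0.921), *Pdia4* (0.913) and *Manf* (0.90), ranked 4, 7 and 12 of 15136. Over all genes the median r stayed close to 0 (heart 0.0086, kidney -0.0031, liver -0.0178).

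*Pdia4*, *Manf*, *Hyou1*, *Creld2* and *Sdf2l1* had r above 0.6 in all 3 tissues, with the lowest value 0.669 for *Hyou1* in heart. *Xbp1* did so in heart and kidney (0.725) and not in liver (-0.27). *Herpud1* ran against *Hspa5* in heart (-0.64) and was near 0 in kidney (0.10), and *Ddit3* was at -0.57, 0.18 and 0.52 in heart, kidney and liver. Leaving out the 2 libraries farthest from the median of *Hspa5* left r of the 5 genes between 0.568 (*Creld2* in heart) and 0.992 (*Creld2* in liver), and took *Xbp1* in kidney to 0.441. Spearman's rho of the 5 lay between 0.524 (*Sdf2l1* in heart) and 0.979 (*Creld2* in liver).

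**Figure D4:**
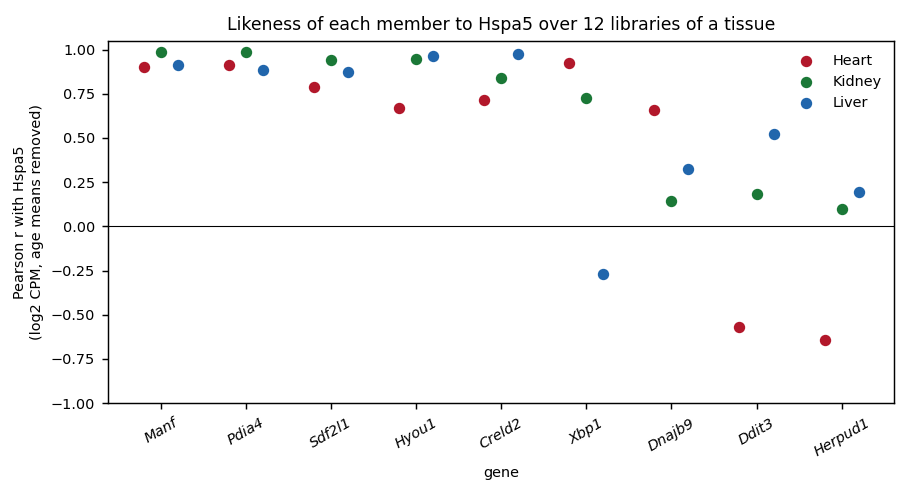
Pearson's r with *Hspa5* (vertical axis) over 12 libraries of each tissue, age means removed, for the other 9 members (horizontal axis). The 5 genes at the left lie above 0.6 in all tissues, and *Herpud1* and *Ddit3* lie below 0 in heart.

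Outside the members, the genes most like *Hspa5* were *Dnajb11* (0.944), encoding the BiP co-chaperone ERdj3, *Abhd17c* (0.935) and *Fam174b* (0.922) in heart. In kidney they were *Igkv17-127* (0.955), an immunoglobulin kappa variable segment, *Hsp90b1* (0.953) and the signalling ligand gene *Shh* (0.934). In liver they were *Ddx50* (0.977), *Sel1l* (0.962) and *Heatr5a* (0.914).

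Single libraries stood far from the tissue mean for several members together, with differences between ages left in. Averaged over *Hspa5* and these 5 genes, a set formed after the values were seen, log2 CPM of the 10-week liver replicate 1 lay 0.98 above the tissue mean and that of replicate 2 lay at -0.44. In heart, 10-week replicate 1 was highest at 0.68 and 8-week replicate 3 lowest at -0.52. In kidney, 10-week replicates 1 and 4 stood at 0.49 and 0.48 and 12-week replicate 3 at -0.56. *Herpud1* in heart went the other way in 10-week replicate 1 (-0.63) and *Ddit3* had its highest heart value in 12-week replicate 4 (0.73), a library in which all 6 of the averaged genes were below their means.

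**Figure D5:**
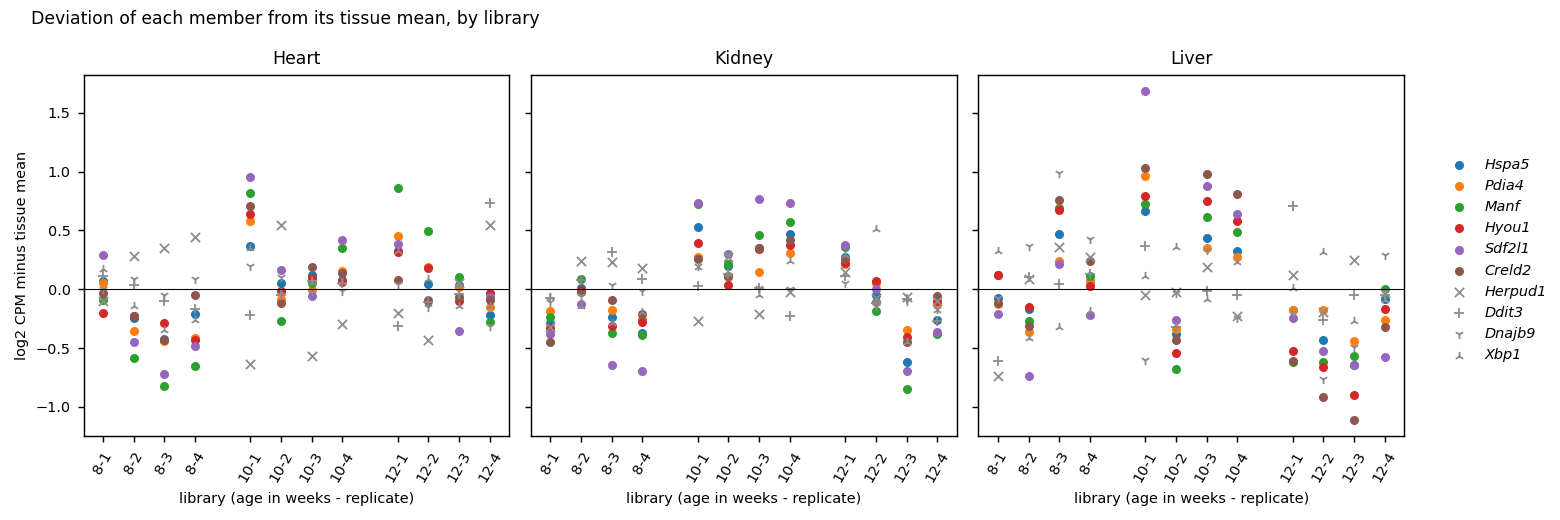
Log2 CPM minus the tissue mean (vertical axis) for each member in each library (horizontal axis, age in weeks and replicate). Coloured points are *Hspa5* and the 5 genes that varied with it, grey marks the other 4 members. Coloured points of one library lie together, as in liver 10-week replicate 1 (mean 0.98) and kidney 12-week replicate 3 (mean -0.56).

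The spread of the members within an age, as the SD of log2 CPM, was mostly above that of a typical gene. In liver it was above the all-gene median of 0.25 for 10 of 10, from 0.27 (*Xbp1*) to 0.52 (*Sdf2l1* and *Creld2*). In heart the median was 0.18, and *Manf* (0.43), *Herpud1* (0.42) and *Sdf2l1* (0.39) were the most variable members and *Dnajb9* (0.12) the least. In kidney the median was 0.17, *Manf* reached 0.34 and *Sdf2l1* 0.33, while *Dnajb9* (0.11), *Ddit3* (0.15) and *Pdia4* (0.16) were below it.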

How the data were processed

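RNA of heart, kidney and liver was sequenced in 4 libraries per tissue and age (12 per tissue, 36 in all), biological replicates within a tissue and age. The study's methods give fewer animals per age than libraries, so some animals gave more than 1 tissue, but the labels do not say which, and the fit over tissues treats libraries as independent. Per the submitters' notes and the study's methods, the authors checked reads with FastQC 0.11.9, trimmed them with cutadapt 4.2, aligned them to GRCm39 with Ensembl v113 genes in STAR 2.7.11b and deposited counts of read pairs per gene, as 1 column without strand and 2 by strand. The column without strand was used. Between 49.8% and 50.2% of stranded counts fell to the first strand, so antisense overlap cannot be separated, and pairs in overlapping genes (7.36% to 8.95% per library) were left out. Names came from GENCODE vM39 (78168 of 78239 rows), and the 4 summary rows were dropped.

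Genes with a mean count of at least 10 and 2 libraries above 0 in any group were tested with edgeR 4.0.16 (R 4.3.3, quasi-likelihood test, TMM factors, Benjamini-Hochberg over all genes), per tissue for ages (heart 15137 genes, kidney 17649, liver 14672) and over 36 libraries (19716) for tissues and their differences in the change with age. A call meant an adjusted p under 0.05, and between tissues also an absolute log2 fold change over 1. Alternatives were DESeq2 1.42.0, limma 3.58.1 (voom), RLE factors, no count filter, the first strand column, the replicate number as a block and leaving out each library. CPM used TMM factors over 36 libraries, log2 CPM a prior count of 2. Precision is limited by 4 libraries per group and by counts as low as 51 (*Ddit3* in liver). Fits were tested on simulated data. Columns of other samples used numbered 0. Members and gene lists were chosen with earlier results of these data known. All 10 members are named. List genes are named for at most the 3 highest and 3 lowest passing fold changes between ages and, between tissues, from the highest and lowest of each list. The 3 genes most like *Hspa5* outside the members are named in each tissue. *Ddit3* has another gene row of the same symbol at 0 counts in all libraries, which was not used. Pairs in bases that both rows share count to neither. Promoters of RefSeq (GRCm38.p6) were searched as letters only.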

Additional observations from a re-analysis of the deposited data

Results flagged for a closer look

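A gap test (Dixon) over 90 groups of member, tissue and age marked a library as far from the other 3 in 10 groups. Chance marks about 1 in 20 independent groups, but these groups are not independent, since members varied together within a library. In kidney the marked libraries were 10-week replicate 2, lowest for *Sdf2l1* (6.61 CPM against 8.93 to 9.15) and *Hyou1* (104 against 128 to 133), 8-week replicate 2, highest for *Hyou1* (101 against 80.4 to 83.5), 8-week replicate 1, lowest for *Herpud1* (235 against 332 to 348), and 12-week replicate 1, highest for *Herpud1* (325 against 274 to 281). The 10-week and 8-week replicate 2 libraries narrow the gap between these ages for *Hyou1*. In heart they were 8-week replicate 1, highest for *Pdia4* (23.7 CPM against 16.8 to 17.9), and 10-week replicate 1, highest for *Hyou1* (68.8 against 43.8 to 47.2). In liver they were 12-week replicate 4, highest for *Manf* (80.4 CPM against 52.5 to 54.2), 8-week replicate 1, lowest for *Ddit3* (2.56 against 4.02 to 4.28), and 12-week replicate 1, highest for *Ddit3* (6.38 against 3.27 to 3.78).

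The change from 8 to 12 weeks differed between liver and heart for *Manf* (log2 difference of changes -1.49, edgeR adjusted p = 0.0228) and *Hyou1* (-1.12, adjusted p = 0.0221).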

How the results depend on the processing

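Between tissues, counts of called members were 3, 8 and 8 (kidney against heart, liver against heart, liver against kidney) under every setting with all libraries, and 3, 8 to 9 and 8 to 9 with 1 left out. No called value changed sign. Of 1080 member values under other settings 26 changed sign, among them *Ddit3* in liver against kidney with the first strand column, and none had a reported absolute log2 fold change above 0.19. With 1 library left out, 132 of 4320 did, up to a reported value of 0.39. Counts for ages were less stable. Without the count filter, edgeR called 7 members in heart at 10 against 8 weeks, 3 at 12 against 8, 7 in kidney at 10 against 8, 6 at 12 against 10, and in liver 1, 2 and 6 (10 against 8, 12 against 8, 12 against 10), and for differences between tissues 1 for kidney minus heart, 6 for liver minus heart and 4 for liver minus kidney at 12 against 8 weeks and 1 each for liver minus heart and liver minus kidney at 10 against 8. That fit tested 34374 to 47683 genes. Its prior degrees of freedom went from 8.22 to infinite in heart, from 4.88 to 99.1 in kidney and from 4.08 to 29.3 in liver. In the fit of 36 libraries they went from 5.91 to 440. DESeq2 called 1 in heart at 10 against 8 weeks, 5 and 2 in kidney (10 against 8, 12 against 10) and 1 and 3 in liver (10 against 8, 12 against 10). Limma-voom called 0 in heart at 12 against 8 weeks and 0 for liver minus heart. The first strand column gave 0 in heart at 12 against 8 weeks and 3 in kidney at 10 against 8. The cause was not tested for these.

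With 1 library left out, counts ran from 0 to 4 (heart, 10 against 8 weeks; 2 without 8-week replicate 1 and 4 without 10-week replicate 2), 0 to 2 (heart, 12 against 8; 2 without 10-week replicate 1), 0 to 6 (kidney, 10 against 8; 2 without 10-week replicate 2, 5 without 12-week replicate 3, 6 without 12-week replicate 1), 0 to 3 (kidney, 12 against 10; 3 without 12-week replicate 1), 0 to 1 and 0 to 3 (liver, 10 against 8 and 12 against 10; the higher without 10-week replicate 2), 0 to 4 (liver minus heart, 12 against 8; 4 without liver 12-week replicate 4) and 0 to 2 (liver minus kidney; 2 without liver 10-week replicate 2 or 12-week replicate 4). Members with r above 0.6 numbered 7, 6 and 5 in heart, kidney and liver, and 5 to 7, 5 to 6 and 5 to 6 with 1 library left out.

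With the replicate number as a block (in the fit of 36 libraries, the number within each age, shared by the 3 tissues), counts between tissues stayed at 3, 8 and 8, and edgeR called 5 members in heart at 10 against 8 weeks and 3 at 12 against 8, 1 in kidney at 10 against 8, and 3 for liver minus heart at 12 against 8. Within a tissue the block joined libraries of different ages, which came from different animals. In the main fits the number was not treated as a pairing, by a rule that asked every pair to correlate above 0.1. That rule is no test of pairing, so the fits over tissues may leave out a real one. Between ages, 7 of 36 same-numbered pairs correlated above 0.1 (r from -0.26 to 0.17) and 9 of 36 correlated best with their own number. Between tissues it was 20 of 36 (r from -0.01 to 0.26), with 29 of 36 best with their own number. By the number of animals in the study's methods, some animals gave several tissues. The correlations hint that libraries of one number share an animal, which the labels do not say. On RLE factors, mean levels of all members moved by less than 1 SD.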

Other observations

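In each of the 3 tissues the 10-week replicate 1 library had the highest mean log2 deviation of *Hspa5*, *Pdia4*, *Manf*, *Hyou1*, *Sdf2l1* and *Creld2*: 0.68 in heart, 0.49 in kidney and 0.98 in liver. The next highest libraries stood at 0.40 (12-week replicate 1) in heart, 0.48 (10-week replicate 4) in kidney and 0.67 (10-week replicate 3) in liver, so in kidney the lead was small. The 6 genes were grouped after their values were seen, and the labels do not say whether libraries of one number came from one animal. Since some animals gave several tissues, the 3 tissues are not independent repeats.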
